A study of Mus musculus with 27 samples.

Results

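Replication of DNA and division of the cell draw on different sets of genes. Here 43 genes were followed that together mark both, out of 24025 genes in the bulk table of a study of mouse hearts carrying deletions in Hand2as (also Hand2os1 or Uph), a long noncoding RNA gene beside Hand2. They were chosen by function, with earlier results of these data known. The list holds 12 S phase genes, 5 D and E cyclins and 26 genes of mitosis, and a further 69 cell cycle genes served as the surrounding pathway. The study set homozygous deletions against heterozygous or wild-type controls, all in strain C57BL/6. Allele F is the full-length knockout, and allele D removes the distal 3′ end.

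The 25 bulk libraries of poly(A) RNA fell into 7 groups. Stages are given in days of embryonic life (E). Whole hearts at E11.5 were F/+ (3 libraries) or F/F (3), and ventricles at E16.5 were F/+ (3) or F/F (3), so every embryonic bulk library carries at least 1 copy of allele F. Cardiomyocytes from 8-week-old mice were +/+ (5), D/+ (2) or D/D (6), and +/+ and D/+ together formed the 8-week controls (7). At E11.5, 1 library of dissociated single cells was made from +/+ hearts and 1 from F/F hearts, each pooling 6 hearts sorted for living cells. Whether the bulk replicates came from separate animals is not given, so their p-values measure the spread between libraries, which may be technical. Bulk values are FPKM, a level per transcript length and per library total, and carry no read depth.

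Dividing cells pass from G1 through S phase and G2 into mitosis. D cyclins with CDK4 or CDK6, then E cyclins with CDK2, phosphorylate the RB proteins and release E2F factors, which drive genes of DNA replication. Genes of mitosis are switched on later, largely through CHR and CCAAT promoter elements bound by the DREAM and MuvB complexes and by NF-Y. In the mouse heart, cardiomyocytes divide in the embryo and largely leave the cell cycle soon after birth.

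Promoter sequences are shown first because the letters searched for were held by different shares of the S phase and mitosis genes. RefSeq promoters (GRCm38.p6, the 250 bases before the start) were found for 35 of the 43 genes, as 39 entries, of which 4 genes had 2. The motifs searched on both strands were CHR (TTTGAA, or TTCAAA read from the other strand), CCAAT, which reads ATTGG on the other strand, and 4 spellings of the E2F element (TTTCCCGC, TTTGGCGC, TTTCGCGC and TTTGCCGC, or GCGGGAAA, GCGCCAAA, GCGCGAAA and GCGGCAAA). Capitals mark the matches in these sequences, which are written 5′ to 3′ along the gene.
Ube2c, the mitotic ubiquitin-conjugating enzyme, at chr2:164769679-164769928 (plus strand): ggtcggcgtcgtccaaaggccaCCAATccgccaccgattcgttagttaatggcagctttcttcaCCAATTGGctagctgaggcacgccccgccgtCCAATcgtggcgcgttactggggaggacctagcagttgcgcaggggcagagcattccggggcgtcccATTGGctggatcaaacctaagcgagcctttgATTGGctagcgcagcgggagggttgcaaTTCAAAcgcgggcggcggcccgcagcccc
Top2a, the topoisomerase that untangles chromosomes, at chr11:99024190-99024439 (minus strand): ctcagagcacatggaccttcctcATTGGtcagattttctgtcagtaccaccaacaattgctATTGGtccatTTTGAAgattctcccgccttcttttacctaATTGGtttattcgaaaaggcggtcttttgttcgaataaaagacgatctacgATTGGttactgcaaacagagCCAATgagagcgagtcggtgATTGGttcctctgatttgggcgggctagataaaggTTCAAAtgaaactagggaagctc
Cdc20, an activator of the anaphase-promoting complex, at chr4:118437344-118437593 (minus strand): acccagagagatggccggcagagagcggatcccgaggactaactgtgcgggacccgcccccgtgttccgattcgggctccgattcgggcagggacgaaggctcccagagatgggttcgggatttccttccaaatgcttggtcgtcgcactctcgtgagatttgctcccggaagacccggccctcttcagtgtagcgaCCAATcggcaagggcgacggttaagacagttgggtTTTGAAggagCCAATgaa
Ccnb2, a cyclin partner of CDK1, at chr9:70421555-70421804 (minus strand): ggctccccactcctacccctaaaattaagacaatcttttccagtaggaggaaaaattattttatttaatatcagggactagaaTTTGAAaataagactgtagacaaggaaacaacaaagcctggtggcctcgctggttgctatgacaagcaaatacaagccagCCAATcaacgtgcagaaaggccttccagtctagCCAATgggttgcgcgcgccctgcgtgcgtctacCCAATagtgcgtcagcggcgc
Mcm6, a subunit of the replicative helicase, at chr1:128359706-128359955 (minus strand): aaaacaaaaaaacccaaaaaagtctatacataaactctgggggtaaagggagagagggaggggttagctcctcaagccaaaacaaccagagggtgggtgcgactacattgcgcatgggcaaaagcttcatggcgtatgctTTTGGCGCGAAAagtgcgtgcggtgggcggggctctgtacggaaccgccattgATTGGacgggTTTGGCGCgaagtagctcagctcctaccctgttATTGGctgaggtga

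The first 4 belong to mitosis and hold both a CHR and a CCAAT match. Other mitosis genes described below did not. Cenpa, Plk1, Bub1 and Cenpf held CCAAT without CHR, and Birc5 held neither. Mcm6, chosen after its values were seen, stands for the S phase genes with an E2F spelling. In Mcm6 the spellings on the 2 strands overlap within TTTGGCGCGAAA, and in Ube2c the run CCAATTGG reads as CCAAT on both strands. Of the 24 promoter entries of mitosis genes, 10 (41.7%) held the CHR letters, 21 (87.5%) held CCAAT and 1 (4.17%) held an E2F spelling. Of the 12 entries of S phase genes, 1 (8.33%) held CHR, 9 (75.0%) held CCAAT and 4 (33.3%) held an E2F spelling. Over all 32851 promoter entries of the same length the shares were 16.0%, 33.8% and 1.86%. All 10 mitosis entries with CHR also held CCAAT, a pair found in 5.55% of all entries. The D and E cyclins had 3 entries, of which 1 held CCAAT. A match describes letters in a window, not a binding site.

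Some facts of the libraries bear on all values. Haemoglobin genes took 10.4% to 29.7% of all FPKM in F/+ hearts at E11.5 but 0.651% to 0.835% in F/+ ventricles at E16.5. FPKM of every other gene is per library total. It is not a share of summed FPKM, which was 376930 to 457462 in these hearts and 334194 to 339074 in these ventricles. Hand2os1 was listed at 0 in all 6 bulk libraries at E11.5, and so could not check their genotype. It was at 0 in the 3 F/F ventricles against 0.37 to 1.40 FPKM in the 3 F/+ ventricles. At 8 weeks it ranged from 0 to 13.5 in +/+ (replicate 5 was at 0, against its label), from 5.25 to 6.17 in D/+ and from 0 to 2.67 in D/D. The single-cell library labelled +/+ held 1 Hand2os1 UMI and the library labelled F/F held 9, which goes against the labels, so those genotypes are given as labelled throughout. Cardiomyocyte markers summed to 13761 to 16128 FPKM in F/+ hearts at E11.5 and 44084 to 52913 in +/+ cardiomyocytes at 8 weeks. The cardiomyocyte label at 8 weeks therefore had its markers, although endothelial markers still summed to 114 to 399 FPKM in the controls.

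In F/+ libraries the cell cycle genes were high in the heart at E11.5, lower for most members in the ventricle at E16.5, and lower again in +/+ cardiomyocytes at 8 weeks, where 24 of 26 mitosis genes and 3 of 12 S phase genes averaged under 1 FPKM. The summed S phase genes stood at 661 to 775 FPKM at E11.5, at 387 to 404 at E16.5 and at 19.3 to 30.4 at 8 weeks. The summed mitosis genes stood at 952 to 1116, at 594 to 661 and at 17.1 to 28.0 FPKM. The D and E cyclins stood at 513 to 569, at 295 to 311 and at 59.9 to 87.9 FPKM, so they kept the largest share of their embryonic level. The ranges of the 3 stages did not overlap in any of the 3 sums. Stage and material (whole heart, ventricle, isolated cardiomyocytes) changed together, and from E16.5 to 8 weeks so did genotype (F/+ to +/+), and they cannot be told apart. In bulk RNA fewer cells of a type and less RNA per cell cannot be told apart either.

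**Figure D1:**
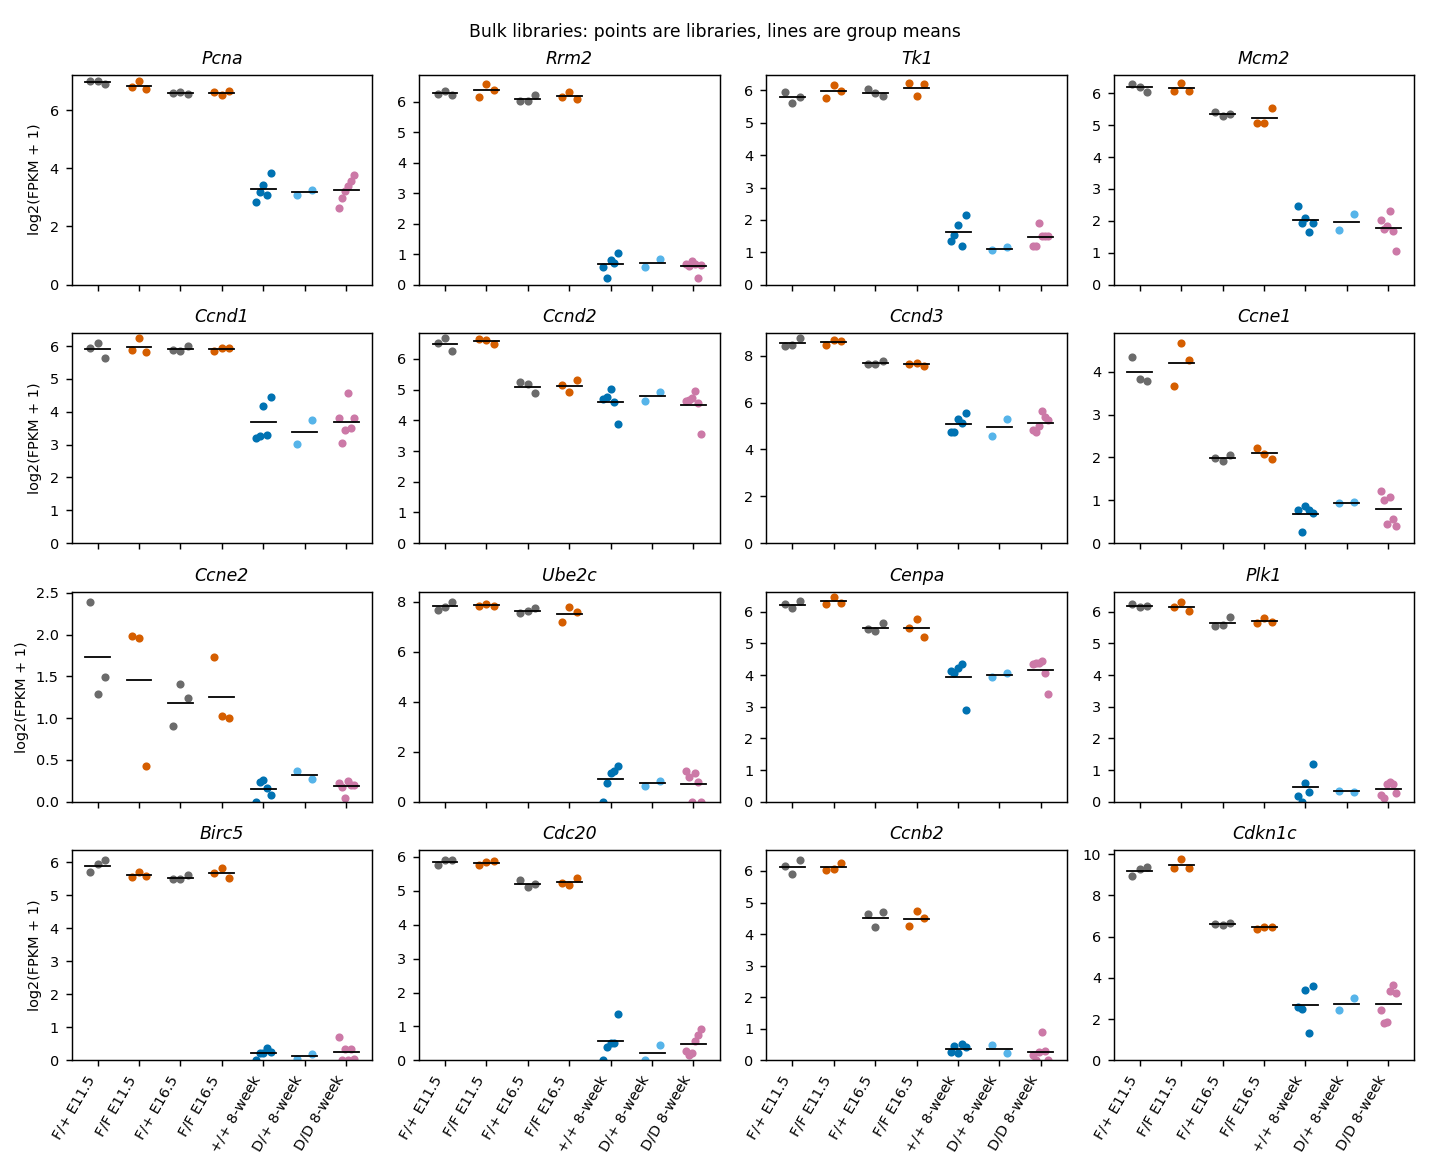
Each panel gives log2(FPKM + 1) of 1 gene (15 members and Cdkn1c) in the 25 bulk libraries by group, with points for libraries and lines for group means. Ube2c stands at 189 to 212 FPKM in F/+ ventricle and at 0 to 1.71 FPKM in +/+ cardiomyocytes, while Ccnd2 overlaps between those groups.

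From E11.5 to E16.5, 32 of the 42 members tested were lower in F/+ and none was higher (limma on log2 of FPKM plus 1, Benjamini-Hochberg adjusted p below 0.05 over all 11405 genes tested). Over all genes 31.0% were called lower and 17.7% higher. By role, 10 of 12 S phase genes, 3 of 5 D and E cyclins and 19 of 25 tested mitosis genes were lower. Their median log2 differences were -1.17, -0.86 and -0.70, beside -0.18 over all genes tested. The 10 members not called were Rrm2, Tk1, Ccnd1, Ccne2, Ccna2, Bub1, Bub1b, Ube2c, Kif11 and Anln.

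The 12 S phase genes ran from -2.81 (Cdc6) to 0.14 (Tk1) in log2 difference. Mcm2, a subunit of the MCM helicase that unwinds DNA, was at 78.0, 72.3 and 65.0 FPKM in the 3 E11.5 libraries and 41.8, 38.4 and 39.9 at E16.5. The groups did not overlap, and the difference was -0.82 (SE 0.12, adjusted p = 8.3e-04) on the log2 scale by limma. Mcm6, another subunit and chosen after its values were seen, was at 65.3, 56.1 and 64.2 FPKM and then 12.1, 13.6 and 15.9, a log2 difference of -2.08 (SE 0.15, adjusted p = 2.8e-05) by limma. Cdc6, which loads the helicase onto origins and was chosen in the same way, was at 7.93, 8.30 and 8.16 FPKM and then 0.54, 0.3 and 0.11. Its levels at E16.5 sat below 1 FPKM in every library, and its log2 difference was -2.81 (SE 0.22, adjusted p = 3.9e-05) by limma. Pcna, the sliding clamp of DNA polymerase, was at 127, 126 and 117 FPKM and then 95.2, 97.3 and 92.7, with a log2 difference of -0.37 (SE 0.11, adjusted p = 0.0183) by limma.

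Rrm2 and Tk1, which make and salvage deoxynucleotides, did not pass the test. Rrm2, the small subunit of ribonucleotide reductase, was at 75.6, 81.5 and 74.4 FPKM at E11.5 and 63.6, 63.7 and 74.2 at E16.5, a log2 difference of -0.20 (SE 0.12, adjusted p = 0.194) by limma. Tk1, thymidine kinase, was at 60.98, 47.5 and 55.3 FPKM and then 64.8, 59.1 and 55.97, a log2 difference of 0.14 (SE 0.13, adjusted p = 0.423) by limma. The Tk1 libraries of the 2 stages overlapped in range, while the 3 Rrm2 values at E16.5 lay just below those at E11.5.

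The D cyclins, which carry growth signals to the RB proteins, parted from one another. Ccnd3 was at 339, 350.1 and 430.3 FPKM at E11.5 and 199, 198 and 215 at E16.5, a log2 difference of -0.86 (SE 0.12, adjusted p = 7.5e-04) by limma. Ccnd2 was at 90.1, 102 and 75.7 FPKM and then 37.0, 35.1 and 28.3, a log2 difference of -1.38 (SE 0.16, adjusted p = 2.3e-04) by limma. Ccnd1 was at 60.7, 67.9 and 48.7 FPKM and then 57.5, 57.2 and 63.3. Its stages overlapped, and its log2 difference was 0.02 (SE 0.15, adjusted p = 0.933) by limma. Ccne1, the E cyclin of entry into S phase, was at 19.3, 13.1 and 12.7 FPKM and then 2.95, 2.79 and 3.19, a log2 difference of -1.99 (SE 0.20, adjusted p = 1.2e-04) by limma. Its sister Ccne2 was low at both stages, at 4.25, 1.45 and 1.82 FPKM and then 0.88, 1.66 and 1.36, with a log2 difference of -0.54 (SE 0.33, adjusted p = 0.203) by limma. In FPKM, which is per length, Ccnd3 was therefore the highest of the 5 at both embryonic stages, and the ranges of Ccnd1 and Ccnd2 did not overlap with it.

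Among the mitosis members, some differed between stages and others did not pass. Ube2c was at 201, 219 and 255 FPKM at E11.5 and 189, 198 and 212 at E16.5, and the log2 difference of -0.17 (SE 0.12, adjusted p = 0.290) did not pass in limma. Ccnb2 was at 70.2, 58.4 and 79.8 FPKM and then 24.0, 17.6 and 24.8, a log2 difference of -1.61 (SE 0.18, adjusted p = 1.9e-04) by limma. The promoters of both, printed above, hold CHR and CCAAT matches. Cenpa, the histone H3 variant of centromeres, was at 74.2, 67.9 and 80.1 FPKM and then 42.5, 40.8 and 49.3, a log2 difference of -0.73 (SE 0.13, adjusted p = 0.00200) by limma. Cdc20 was at 52.8, 58.6 and 58.4 FPKM and then 38.6, 33.9 and 35.8, a log2 difference of -0.63 (SE 0.12, adjusted p = 0.00293) by limma.

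Plk1, a mitotic kinase, was at 75.1, 69.4 and 71.0 FPKM and then 45.6, 46.7 and 56.4, a log2 difference of -0.53 (SE 0.13, adjusted p = 0.00878) by limma. Birc5, survivin of the chromosomal passenger complex, was at 51.1, 60.3 and 65.8 FPKM and then 44.5, 43.8 and 48.0, a log2 difference of -0.37 (SE 0.13, adjusted p = 0.0484) by limma. Nusap1 and Mki67 were named after their values were seen, and had the largest log2 differences of all members with a pseudocount of 1. With 0.1 the Nusap1 difference was -4.81 and that of Cdc6 -4.45, ahead of Mki67. Nusap1, which bundles spindle microtubules, was at 18.8, 11.95 and 17.3 FPKM and then 0.47, 0.36 and 0.58, a log2 difference of -3.51 (SE 0.22, adjusted p = 1.6e-05) by limma. Mki67, the Ki-67 antigen, was at 41.9, 25.8 and 62.4 FPKM and then 3.29, 3.65 and 4.29, a log2 difference of -3.14 (SE 0.29, adjusted p = 8.6e-05) by limma. Ccnb1, the other main B cyclin, had at most 0.74 FPKM in any F/+ library and was not tested, although it had 81.3 CPM in the +/+ single-cell library.

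**Figure D2:**
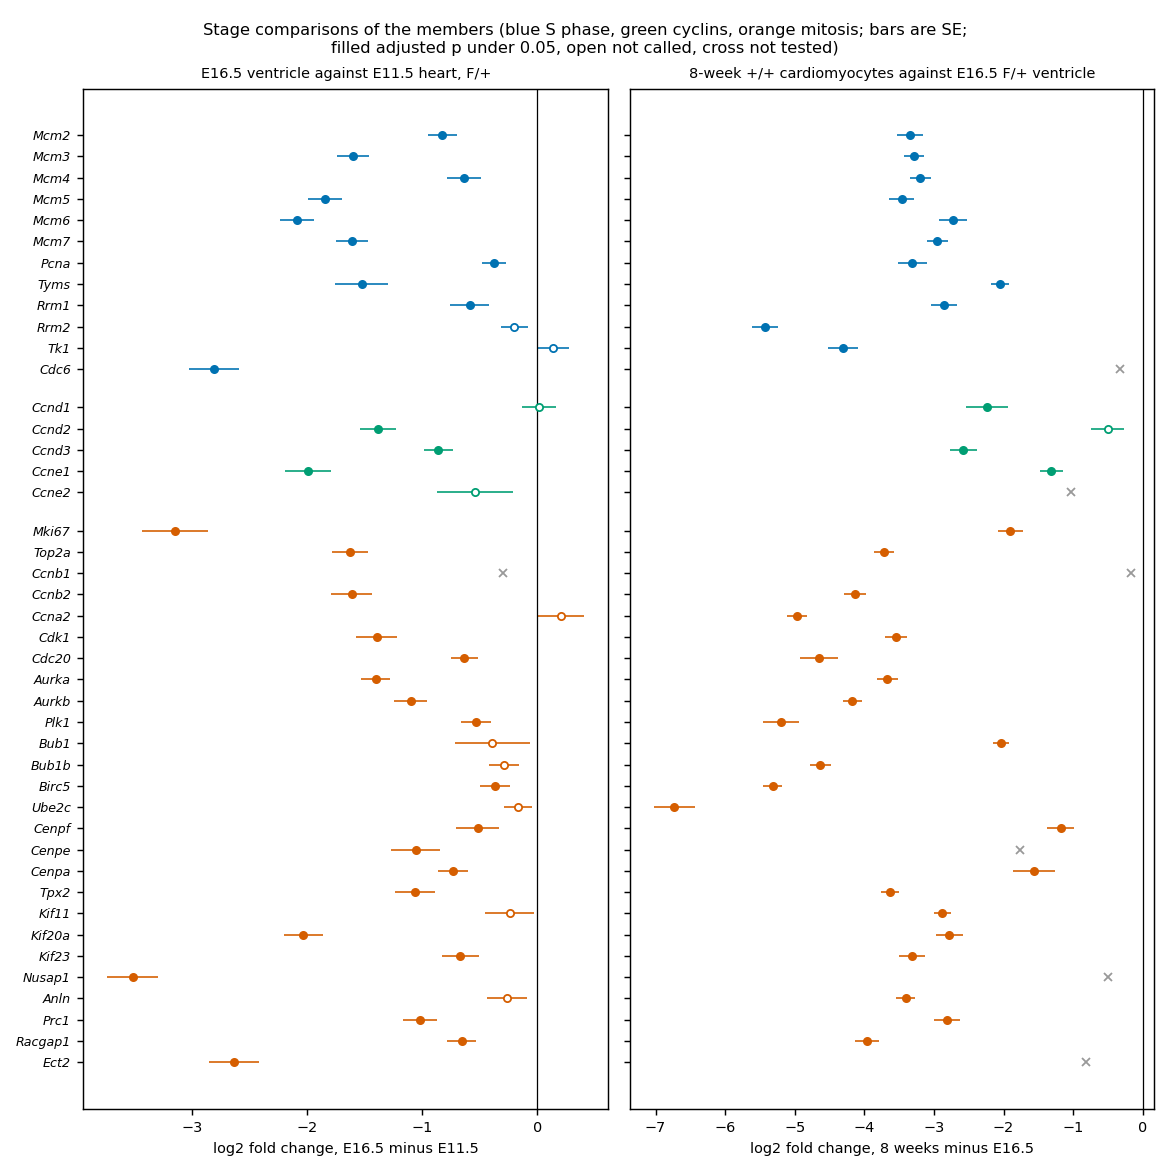
Points give the log2 fold change of each member, bars its standard error, for E16.5 ventricle against E11.5 heart in F/+ (left) and 8-week +/+ cardiomyocytes against F/+ ventricle (right), filled where adjusted p was below 0.05 and crossed where not tested. On the left 32 members are filled below 0, and on the right 36, with Ccnd2 the only open circle.

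The number of members lower at E16.5 was 29 under median-ratio scaling and 26 under upper-quartile scaling, where all genes split into 3005 higher and 2558 lower in place of 2016 and 3536. Leaving out single F/+ libraries ended the calls of Birc5 and Cenpf for 5 of the 6 libraries each, that of Pcna for 4 (adjusted p = 0.0545 to 0.0756 by limma) and that of Plk1 without E16.5 replicate 2 (0.0539). Erythroid markers moved with the stage (9 of 10 lower, summed 39250 to 136307 FPKM in F/+ at E11.5 and 131 to 299.9 at E16.5), as did megakaryocyte (8 of 8 lower), epicardial (7 of 8 lower, 1 higher) and outflow tract markers (5 of 6 lower). Cardiomyocyte markers were 8 higher and 3 lower of 14, mesenchymal 3 and 6 of 11, endothelial 3 and 5 of 10 and immune 1 and 1 of 8. Their part in the result was not tested.

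From E16.5 ventricle to 8-week cardiomyocytes, 36 of the 37 members tested were lower in +/+ and none was higher (limma, adjusted p below 0.05). Over all 10904 genes tested 44.9% were called lower and 24.9% higher. The comparison shares the F/+ E16.5 libraries with the one before it. All 11 tested S phase genes, 3 of 4 cyclins and all 22 tested mitosis genes were lower, with median log2 differences of -3.24, -1.32 and -3.48 beside -0.34 over all genes. Cdc6, Ccne2, Ccnb1, Cenpe, Nusap1 and Ect2 were under 1 FPKM on average and were not tested. That average is over both stages, so a gene under 1 FPKM at 8 weeks was tested only if higher at E16.5. At 8 weeks 24 of 26 mitosis genes and 3 of 12 S phase genes averaged under 1 FPKM. The direction of such genes was set by the filter. Without the filter 41 members were called lower. Without +/+ replicate 5, which lacked Hand2os1 RNA and stood apart in expression, 38 of 38 tested were lower. The shares of all genes above are from the fit with that library. Markers of other cells moved with this comparison too. Of those tested, epicardial (6 of 6), erythroid (5 of 5), immune (6 of 8, 1 higher), mesenchymal (7 of 11, 1 higher) and endothelial markers (4 of 10, 2 higher) were lower, while cardiomyocyte markers were 8 higher and 5 lower of 14. Summed mesenchymal markers stood at 1258 to 1426 FPKM at E16.5 and 68.7 to 129 at 8 weeks, and epicardial markers at 38.9 to 50.9 and 2.91 to 6.66. Their part in the result was not tested.

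The widest difference was that of Ube2c, which ranged from 0 to 1.71 FPKM (median 1.20) in the 5 +/+ libraries against 189 to 212 in F/+ ventricle, a log2 difference of -6.73 (SE 0.29, adjusted p = 9.6e-08) by limma. Rrm2 ranged from 0.17 to 1.04 FPKM (median 0.63) at 8 weeks, a log2 difference of -5.42 (SE 0.19, adjusted p = 3.6e-08) by limma. Plk1 reached at most 1.27 FPKM, Birc5 0.29, Cdc20 1.60 and Ccnb2 0.42 at 8 weeks, below every E16.5 library. Pcna, which also serves DNA repair, kept 6.24 to 13.4 FPKM (median 8.04), a log2 difference of -3.31 (SE 0.21, adjusted p = 7.6e-07) by limma. Mcm2 kept 2.12 to 4.52 FPKM and Tk1 1.29 to 3.46. Cenpa had the highest mean FPKM of the mitosis genes at 8 weeks, at 6.44 to 19.5 FPKM (median 16.54), a log2 difference of -1.56 (SE 0.30, adjusted p = 0.00124) by limma. The difference of Cenpf was smaller, at -1.18.

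The D cyclins kept the highest FPKM of the 5 cyclins at 8 weeks. Ccnd3 ranged from 25.6 to 46.2 FPKM (median 34.4), a log2 difference of -2.58 (SE 0.20, adjusted p = 2.7e-06) from E16.5 by limma. Ccnd2 ranged from 13.9 to 31.5 FPKM (median 25.04) against 28.3 to 37.0 in F/+ ventricle, and its log2 difference of -0.51 (SE 0.23, adjusted p = 0.0762) did not pass in limma. Without +/+ replicate 3 that call was made (adjusted p = 0.0396 by limma), and also without replicate 5 (0.0470), so it rests on single libraries. Ccnd1, whose embryonic stages overlapped, ranged from 8.13 to 20.9 FPKM (median 8.77), a log2 difference of -2.23 (SE 0.30, adjusted p = 1.2e-04) by limma. The ranges of Ccnd2 and Ccnd3 overlapped at 8 weeks, as did those of Ccnd1 and Ccnd2. Ccne1 ranged from 0.19 to 0.83 FPKM and Ccne2 from 0 to 0.20.

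CDK inhibitors, which hold the cyclin kinases in check, did not follow 1 direction across the stages. Cdkn1c (p57) was at 486, 622 and 671 FPKM in F/+ hearts and 96.9, 93.2 and 99.0 in F/+ ventricle, a log2 difference of -2.60 (SE 0.14, adjusted p = 7.3e-06) by limma, and fell further to a mean of 6.34 FPKM in +/+ at 8 weeks, a log2 difference of -3.93 (SE 0.44, adjusted p = 3.5e-05) by limma. Cdkn1a (p21), Cdkn1b (p27) and Cdkn2c (p18) were higher at E16.5, by 1.21, 0.64 and 1.35 on the log2 scale (adjusted p = 0.00139, 0.00957 and 0.00557 by limma). In 1 fit of all 25 libraries the Cdkn1a and Cdkn1b differences did not pass (adjusted p = 0.166 and 0.0618 by limma). Cdkn1b and Cdkn2c were lower again at 8 weeks, with log2 differences of -1.75 and -2.49 (adjusted p = 8.5e-05 and 2.7e-06 by limma). Cdkn2d (p19) was the one inhibitor that was higher at 8 weeks, with mean FPKM of 0.04, 0.02 and 3.69 over the 3 stages and a log2 difference of 2.18 (SE 0.17, adjusted p = 3.2e-06) by limma. Cdkn1a did not pass that test, with a log2 difference of 0.33 (SE 0.53, adjusted p = 0.596) by limma, and its 5 +/+ libraries spread from 16.7 to 112 FPKM. Cdkn2a and Cdkn2b stayed near 0 throughout.

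Genes of the other pathway lists are read beside the shares of all genes called, 31.0% lower and 17.7% higher at E16.5 and 44.9% and 24.9% at 8 weeks. Of 16 tested E2F, DP and MuvB-related factors 10 were lower and 1 higher at E16.5, the one being E2f1, named after its values were seen (0.51 in log2). Of 19 tested genes of origin licensing and replication 10 were lower and 0 higher, and of 20 genes of mitotic entry and the checkpoint 11 were lower and 0 higher. At 8 weeks 8 of 15, 13 of 15 and 16 of 16 tested were lower. Here too a gene under 1 FPKM at 8 weeks was tested only if higher at E16.5. By sign alone 10 of 16, 19 of 19 and 21 of 21 listed genes were lower, tested or not. Of 5 tested G1 kinases and RB family genes 2 were lower at E16.5 and 4 at 8 weeks. The genes higher at 8 weeks, named after their values were seen, were E2f6, Tfdp2 and Lin52 among the E2F-related factors and Rbl2 (p130), the pocket protein of resting cells, whose log2 difference was 1.18 (SE 0.19, adjusted p = 3.8e-04) by limma.

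Full-length deletion left no cell cycle member past the test in bulk RNA. In E11.5 hearts 0 of 42 tested members differed between F/F and F/+ (limma), and 0 passed even an unadjusted p of 0.05, beside 4.37% of all genes at that unadjusted level and 0.0087% (1 of 11491) after adjustment. The median log2 differences of S phase, cyclins and mitosis were -0.01, 0.08 and -0.03, beside 0.02 over all genes. Of the 26 mitosis members 20 had a value below 0. Summed cardiomyocyte markers were at 16696 to 19104 FPKM in F/F and 13761 to 16128 in F/+, and endothelial markers at 419 to 453 and 345 to 390, both without overlap. Mesenchymal markers were at 478 to 559 and 530.2 to 647 FPKM. Summed FPKM of all genes was itself 442355 to 586795 in F/F and 376930 to 457462 in F/+. The marker sums are therefore not shares of a library, and a shift in cell composition was not tested. No marker of these lists was called by limma, and their part in the members' values was not tested. In simulated data with 200 changed genes the same fit recovered 39.0% of changes of 1 log2 unit and 80.0% of changes of 2 units. This sets what the E11.5 comparison could show. For the comparisons below, recovery was 81% and 100% for F/F against F/+ at E16.5, and 71% and 99% for D/D against control.

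At E11.5 the S phase genes overlapped between genotypes. Pcna was at 109.6, 127 and 104 FPKM in F/F, with a log2 difference from F/+ of -0.13 (SE 0.15), and Mcm2 was at 65.6, 79.1 and 66.8 FPKM, with a difference of -0.03 (SE 0.16). Of the cyclins, Ccnd1 was at 58.0, 74.3 and 55.6 FPKM in F/F, Ccnd2 at 99.9, 97.8 and 89.3 and Ccnd3 at 346, 406 and 389. Their log2 differences were 0.08 (SE 0.18), 0.11 (SE 0.16) and 0.03 (SE 0.15), all within the spread of the libraries. Ube2c was at 227, 239 and 228 FPKM in F/F, inside the F/+ range. The smallest unadjusted p among members belonged to Birc5, at 46.3, 51.7 and 47.4 FPKM in F/F, where 1 of 3 libraries lay above the lowest F/+ library. Its log2 difference was -0.27 (SE 0.16, adjusted p = 0.999) by limma. Aurkb, the kinase of the same complex, was at 30.9, 41.7 and 31.4 FPKM against 47.5, 40.4 and 37.0 in F/+, with a log2 difference of -0.26 (SE 0.19, adjusted p = 0.999) by limma.

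At E16.5 0 of 39 tested members differed after adjustment (limma), beside 0.00935% (1 of 10699) of all genes, and 2 passed an unadjusted p of 0.05, beside 2.63% of all genes. The 2 were Top2a and Bub1, a kinase of the spindle checkpoint. Top2a was at 17.9, 19.7 and 17.0 FPKM in F/F and 13.3, 12.3 and 15.1 in F/+, a log2 difference of 0.40 (SE 0.11, adjusted p = 0.99993) by limma. Bub1 was at 4.50, 4.48 and 4.84 FPKM in F/F and 3.49, 3.11 and 2.75 in F/+, a log2 difference of 0.45 (SE 0.13, adjusted p = 0.99993) by limma. In both genes every F/F library lay above every F/+ library, as in Tpx2 and Mki67, named after their values were seen. These 4 mitosis members stood beside 3.9% of all genes (417) that were higher without overlap. Summed mitosis FPKM still overlapped, at 573 to 669 in F/F and 594 to 661 in F/+. Haemoglobin was at 0.998% to 2.42% of FPKM in F/F against 0.651% to 0.835% in F/+, and Y-linked genes reached 1 FPKM in all 3 F/F libraries but in 1 F/+ library. With Y-linked genes at or under that threshold of 1 FPKM as a covariate, the log2 differences were 0.52 for Top2a and 0.45 for Bub1. That fit sets the F/F libraries against the 1 F/+ library that reached the threshold.

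The genotype difference at E16.5 minus that at E11.5 passed for 0 of 42 members (limma), beside 0.00875% (1 of 11423) of all genes, and 1 passed an unadjusted p of 0.05, beside 4.32% of all genes. The 2 smallest unadjusted p values belonged to Birc5 (0.42, adjusted p = 0.999 by limma) and Top2a (0.42, adjusted p = 0.999 by limma). Cdkn1a was at 17.7, 19.6 and 14.9 FPKM in F/F and 10.1, 11.95 and 7.08 in F/+ at E11.5. The groups did not overlap, yet the log2 difference of 0.80 (SE 0.24) did not pass after adjustment (adjusted p = 0.999 by limma). None of the 69 pathway genes was called in any genotype comparison by limma (65, 59, 29 and 64 tested at E11.5, at E16.5, at 8 weeks and for the difference between the embryonic stages).

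**Figure D3:**
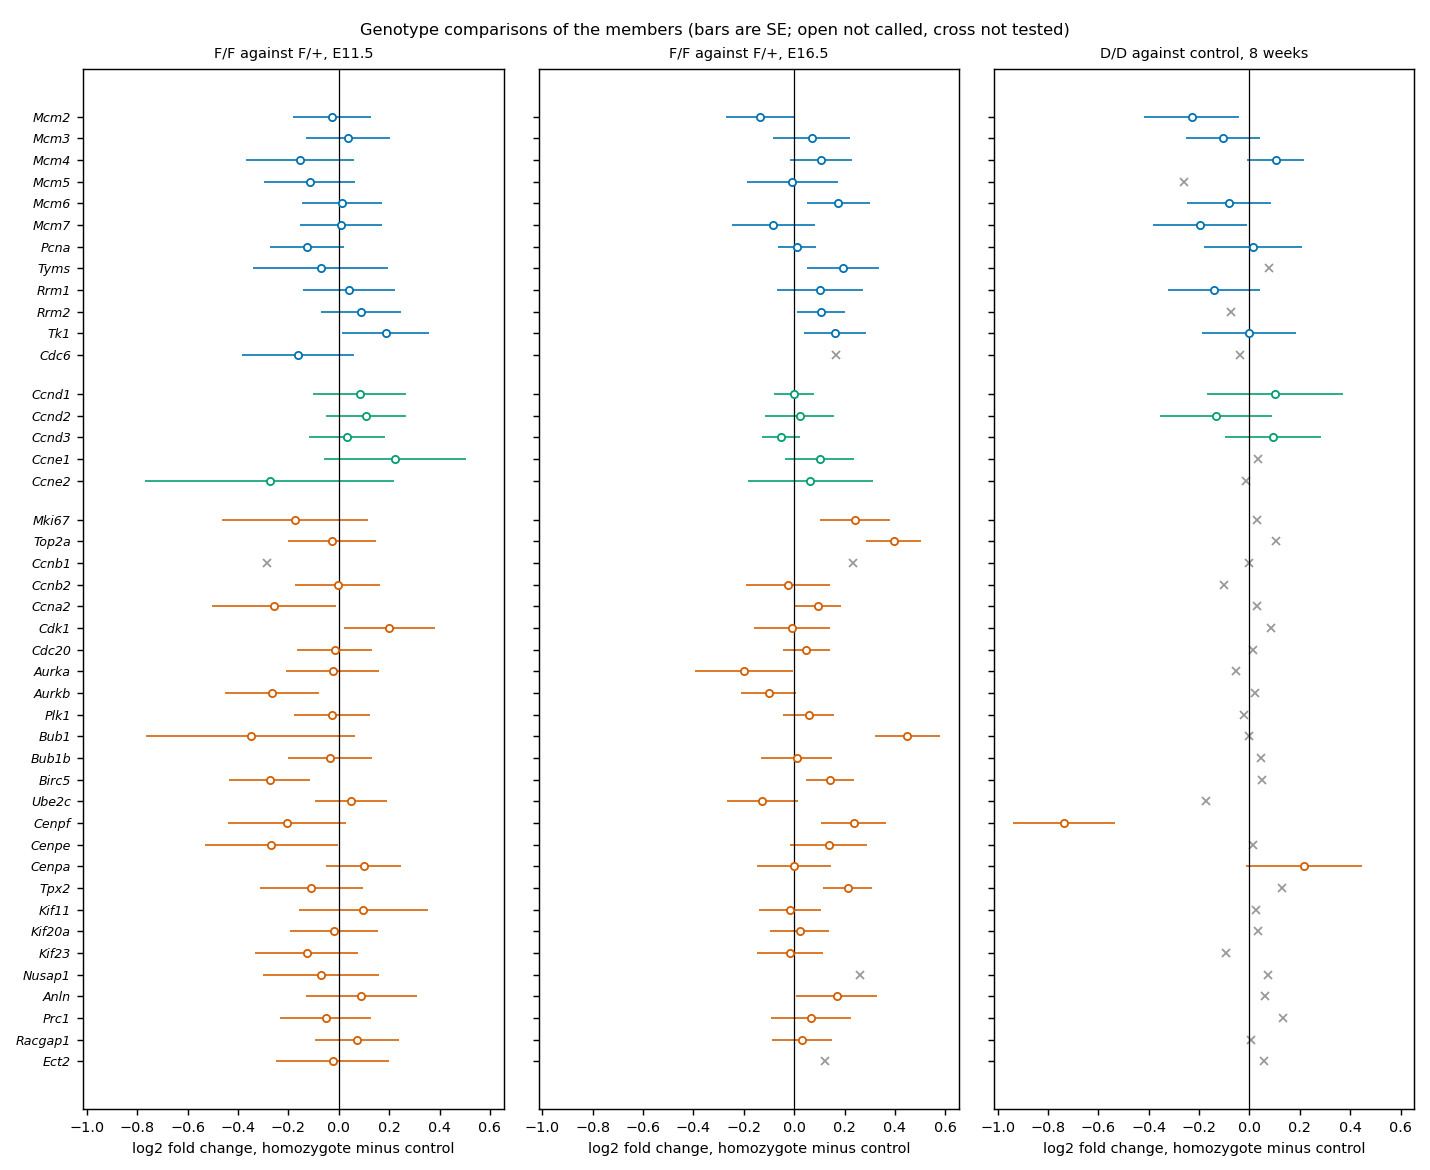
Each panel gives the log2 fold change of every member with its standard error, for F/F against F/+ at E11.5, F/F against F/+ at E16.5 and D/D against control at 8 weeks. All circles are open because no member passed in any panel, and grey crosses mark members that were not tested.

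In adult cardiomyocytes 13 members reached 1 FPKM on average, and 0 of them differed between D/D and controls (limma), beside 0.0% (0 of 10249) of all genes. At an unadjusted p below 0.05, 1 member and 175 genes (1.71%) passed. That member was Cenpf, a kinetochore protein of late G2 and mitosis. Its D/D libraries were at 0.14, 0.56, 1.04, 1.26, 1.58 and 1.83 FPKM and its controls ran from 1.44 to 2.98 (median 2.56). The groups overlapped, and the log2 difference was -0.73 (SE 0.20, adjusted p = 0.99993) by limma. On the first principal component (47.7% of variance) D/D replicate 6 and +/+ replicate 5 stood apart from the other 11 libraries. Without them the Cenpf difference was -0.61, and without the 3 libraries highest on that component it was -0.49. Mcm2 in D/D ranged from 1.07 to 3.92 FPKM against 2.12 to 4.52 in controls, a log2 difference of -0.23 (SE 0.19, adjusted p = 0.99993) by limma. The D cyclins overlapped throughout, with D/D medians of 11.6 FPKM for Ccnd1, 24.1 for Ccnd2 and 34.0 for Ccnd3.

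Single-cell counts at E11.5 gave the level of the members by cell class. Clustering without 276 cell cycle genes gave 18 clusters, and 14 of them were named from marker genes as cardiomyocyte-like, endothelial-like, epicardial-like, erythroid-like, mesenchymal-like, immune-like or, for 14 and 17 cells not described further, megakaryocyte-like. Haemoglobin took 1.24% to 2.19% of the UMIs in the named classes other than erythroid-like, so low levels of a gene in a class are not read as expression there. After filters 2503 cells remained in the library labelled +/+ and 3368 in that labelled F/F, with median depths per barcode of 13369 and 13403 UMIs before filtering. The 2 libraries shared 18 barcodes. Each library is a single sample, so no test between genotypes was possible and intervals cover counting error only. The bulk comparison set F/F against F/+, and this one sets F/F against +/+.

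Cells were thinned to 5000 UMIs each, and a cell with at least 5 UMIs over the 26 mitosis genes was called mitosis-positive, a range cut from a score and not a cell type. In the +/+ library 68.4% of erythroid-like cells (518 of 757) were mitosis-positive, the share was 61.2% in mesenchymal-like (262 of 428), 53.7% in cardiomyocyte-like (261 of 486) and 50.3% in epicardial-like cells (76 of 151). Endothelial-like cells were lower at 42.9% (75 of 175), and immune-like cells higher at 91.9% (57 of 62). Exact 95% intervals put the cardiomyocyte-like share between 49.2% and 58.2%, so it overlaps with the epicardial-like one. Of all cells 56.7% were positive, and 280 of 2372 lay at the threshold or 1 UMI below it.

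Haemoglobin took 60.6% of the UMIs of erythroid-like cells and 1.73% in cardiomyocyte-like cells, so thinning to 5000 UMIs left fewer other UMIs in the former. Thinned instead to 3000 UMIs other than haemoglobin, 92.6% of erythroid-like cells (564 of 609) had at least 3 mitosis UMIs, with 223 erythroid-like cells left out as too shallow. By that count immune-like cells stood at 98.4%, mesenchymal-like at 62.5%, cardiomyocyte-like at 280 of 500, epicardial-like at 53.0% and endothelial-like at 44.1%. The erythroid-like share was then below that of immune-like cells alone among the 6 classes, as it was with haemoglobin counted, but lay further above the rest. An unnamed cluster was led by Rspo3, Bmp4 and Sema3c, genes of the outflow tract that ran beside cardiomyocyte markers. It stood lowest, with 10.8% mitosis-positive (11 of 102) and 12.1% in F/F (18 of 149). In it 14 cardiomyocyte markers were raised, but its cells are not counted as cardiomyocyte-like in any share given here. The other unnamed clusters were led by Rgs5 (29.2% and 35.9%), by haemoglobin (39.5% and 43.8%) and by Afp (13 and 0 cells).

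S phase and mitosis did not rank the classes alike. By 5 UMIs over the 12 S phase genes, 27.8% of cardiomyocyte-like cells were S-phase-positive in the +/+ library, the lowest share of the 6 classes described. Epicardial-like (50.3%), mesenchymal-like (214 of 428), erythroid-like (42.0%) and endothelial-like cells (41.7%) were higher, and immune-like cells stood at 90.3%. In the Rspo3 cluster it was 0.98%. With 3000 UMIs other than haemoglobin and at least 3 S phase UMIs, erythroid-like cells stood at 84.1% (512 of 609), immune-like at 81.0%, epicardial-like at 53.0%, mesenchymal-like at 52.2%, endothelial-like at 47.9% and cardiomyocyte-like at 30.4%. Cardiomyocyte-like cells were thus lowest by both counts, while the place of erythroid-like cells changed. Among all +/+ cells the mitosis-positive share was 51.4% with 0 to 4 S phase UMIs, 61.1% with 5 to 9 and 74.2% with 10 or more. These cells were matched in total UMIs but not in UMIs other than haemoglobin.

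**Figure D4:**
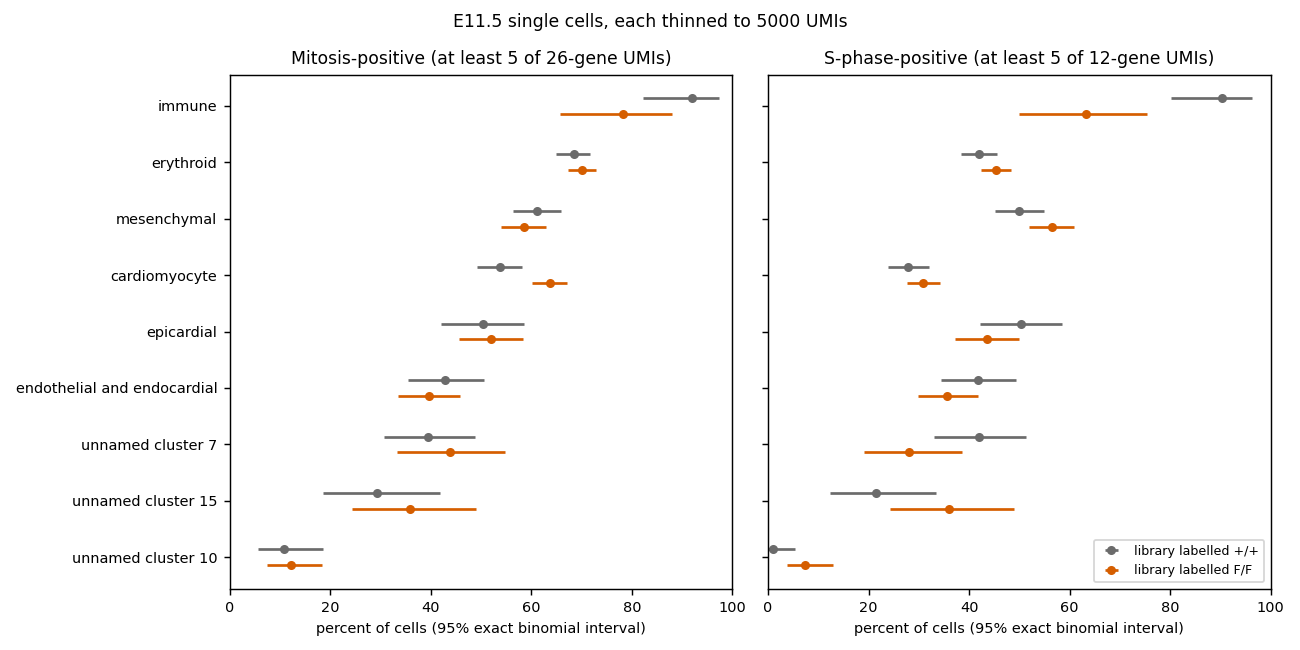
Points give the percent of mitosis-positive cells (left) and S-phase-positive cells (right) by cell class, grey for the library labelled +/+ and orange for that labelled F/F, with 95% exact binomial intervals. Cardiomyocyte-like cells stand at 53.7% and 63.6% on the left and at 27.8% and 30.8% on the right.

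Of the named classes with over 100 cells per library, cardiomyocyte-like cells had the largest difference in mitosis-positive share between the libraries at this depth and threshold. At 3 UMIs or more their difference was 8.59 points and that of epicardial-like cells 8.63, in place of 1.69. In these cells 53.7% (261 of 486) were mitosis-positive in +/+ and 63.6% (485 of 762) in F/F, and 54 and 70 of them lay at the threshold or 1 UMI below. The difference was 9.94 percentage points (interval 4.22 to 15.6), and median mitosis UMIs per thinned cell were 5 and 8. All 4 cardiomyocyte-like clusters had the higher share in F/F, at 62.2% and 69.9% in the Myl2-led cluster, 34.9% and 48.6% in the Cox6a2-led one, 38.1% and 58.7% in the Shox2-led one and 54.5% and 61.02% in the Nppa-led one. The intervals of the last 3 differences included 0. S-phase-positive shares were 27.8% and 30.8% in these cells, a difference of 3.06 points (-2.27 to 8.28) that was -2.21 at a threshold of 10 UMIs. The unthinned mitosis shares were 75.0% and 80.0%. Median depth was 14983 UMIs in +/+ and 14396 in F/F cardiomyocyte-like cells, haemoglobin took 1.73% and 1.72% of their UMIs, and mitochondrial genes 6.42% and 6.14%.

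In the other classes the mitosis-positive intervals of the difference included 0. They were 1.74 points (-2.60 to 6.12) for erythroid-like, -2.71 (-9.20 to 3.83) for mesenchymal-like, 1.69 (-8.75 to 12.1) for epicardial-like, -3.32 (-13.1 to 6.40) for endothelial-like and -13.6 (-27.2 to 0.09) for immune-like cells. The sign turned under single alternatives, with -2.16 for erythroid-like cells at 10 UMIs or more, and 2.36 for mesenchymal-like and 0.20 for endothelial-like cells at 3 UMIs or more. Most erythroid-like cells lay in 1 cluster in +/+ (428 of 832) and in another in F/F (666 of 1144), so that class is not the same mixture in both. Immune-like cells, only 62 and 60 of them, had the widest S phase difference, 90.3% against 63.3%. Whether these differences exceed those between hearts of 1 genotype cannot be read from 1 library of each.

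By gene, cardiomyocyte-like cells held 3 members with a CPM ratio of F/F to +/+ above 1.25 and 3 below its inverse, of 42 with at least 100 UMIs. Over all 6612 genes counted in these cells 1.45% were higher by that rule and 9.74% lower. Ube2c went from 336 to 423 CPM (ratio 1.26, interval 1.20 to 1.32), Birc5 from 175 to 236 (1.35, 1.27 to 1.44) and Ect2, a RhoA activator of cytokinesis, had a ratio of 1.25 (1.04 to 1.51). Over the alternatives the Ube2c ratio was as low as 1.22 and that of Ect2 1.19, both under the fold used, while the lowest for Birc5 was 1.32. The 3 lower were Ccnd2 (673 to 528 CPM, ratio 0.78, 0.76 to 0.81), Ccne2 (37.9 to 22.2, ratio 0.58, 0.49 to 0.69) and Mcm7 (ratio 0.79, 0.71 to 0.87). Summed over roles, mitosis had a ratio of 1.12 (1.10 to 1.14), S phase 1.004 and the cyclins 0.85 (0.83 to 0.87) in these cells. Of the 26 mitosis genes 18 had a ratio above 1, with a median of 1.07, beside a median of 0.96 over all genes. In mesenchymal-like cells 5 of 25 mitosis genes were above 1 (median 0.91, beside 0.99 over all genes), with a summed ratio of 0.92 (0.90 to 0.94). In erythroid-like cells 16 of 24 were above 1 (median 1.02, below the 1.07 over all genes), with a summed ratio of 1.02 (0.999 to 1.04). The summed ratio was 0.93 (0.89 to 0.96) in endothelial-like and 1.03 (1.0003 to 1.07) in epicardial-like cells.

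Other classes had other members past that fold. Erythroid-like cells had 2 members higher, Bub1 (ratio 1.30, 1.02 to 1.66) and Mcm4 (1.41, 1.18 to 1.68), and Ccne2 lower, of 40, beside 7.77% of all genes higher and 3.2% lower. Mesenchymal-like cells had Ccne1 (1.26, 0.99 to 1.61) and Cdc6 (1.29, 1.02 to 1.63) higher and 5 members lower, of 42, beside 2.03% and 8.9% of all genes. The 5 were Ccne2, Mcm7, Top2a (0.71, 0.66 to 0.76), Nusap1 (0.70, 0.62 to 0.80) and Anln, a cytokinesis scaffold (0.80, 0.61 to 1.04). Summed over all cells, Ect2 was higher (1.42, 1.26 to 1.61) and Ccne2 and Mcm7 lower, of 43, beside 1.73% and 6.88%.

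Ccne2 and Mcm7 were lower in the F/F library in all 5 named classes with over 100 cells per library. Over all cells the ratios were 0.61 (0.57 to 0.66) for Ccne2 and 0.71 (0.68 to 0.74) for Mcm7. In endothelial-like, epicardial-like, erythroid-like and mesenchymal-like cells the Ccne2 ratios were 0.54, 0.66, 0.61 and 0.64, and those of Mcm7 were 0.60, 0.61, 0.80 and 0.69. The bulk hearts at E11.5, which compare F/F with F/+, did not show this. Mcm7 was at 78.9, 83.9 and 71.5 FPKM in F/F and 83.9, 84.9 and 65.3 in F/+, and Ccne2 at 2.94, 2.89 and 0.34 and 4.25, 1.45 and 1.82, with overlapping libraries in both. Ccnd2 was lower in F/F in endothelial-like (0.71) and epicardial-like cells (0.76), but not in mesenchymal-like (1.05) or erythroid-like ones (1.09). The 2 endothelial-like clusters had ratios of 0.90 (0.77 to 1.06) and 0.77 (0.71 to 0.84), both nearer 1 than the pooled value. Their Ccnd2 levels in +/+ were 206 and 997 CPM, and they held 128 and 60 cells in +/+ and 196 and 82 in F/F, so the pooled ratio also carries their mixture. In the 4 cardiomyocyte-like clusters the Ccnd2 ratio ran from 0.72 to 1.04. Birc5, higher in F/F cardiomyocyte-like cells, had 2 of 3 F/F bulk libraries at E11.5 below every F/+ library.

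Cyclin CPM differed by cell class, and haemoglobin, at 60.6% and 59.1% of the UMIs of erythroid-like cells, lowers the CPM of every other gene there. Ccnd1 was highest in mesenchymal-like cells (354 CPM in +/+, 323 in F/F) and epicardial-like cells (251 and 244), lower in cardiomyocyte-like cells (74.0 and 62.7), and 2.69 and 5.27 in erythroid-like cells, a level not read as expression. Ccnd2 was highest in epicardial-like (1001 and 762) and cardiomyocyte-like cells (673 and 528), and 29.3 and 32.0 in erythroid-like cells. Ccnd3 was at 412 and 426 CPM in epicardial-like and 327 and 360 in erythroid-like cells, beside 314 and 320 in cardiomyocyte-like cells and 175 in mesenchymal-like cells of both libraries. CPM is not per length, so these values do not order the genes. Ccne1 ran from 11.54 CPM in erythroid-like to 74.3 in immune-like cells of the +/+ library, and Ccne2 from 29.0 in erythroid-like to 55.1 in epicardial-like cells.

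With haemoglobin and mitochondrial genes left out of the total, some of these orders changed. Ccnd3 was then highest of the 6 classes in erythroid-like cells, at 857 CPM in +/+ and 910.4 in F/F, against 430 and 444 in epicardial-like cells. Ccnd1 (7.04 CPM in +/+) and Ccnd2 (76.9) stayed lowest in erythroid-like cells. Ccne1 was then lowest in mesenchymal-like cells (19.5 CPM in +/+, beside 30.3 in erythroid-like cells). Ccne2 was highest in erythroid-like cells (76.0 CPM in +/+, beside 57.6 in epicardial-like cells).

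**Figure D5:**
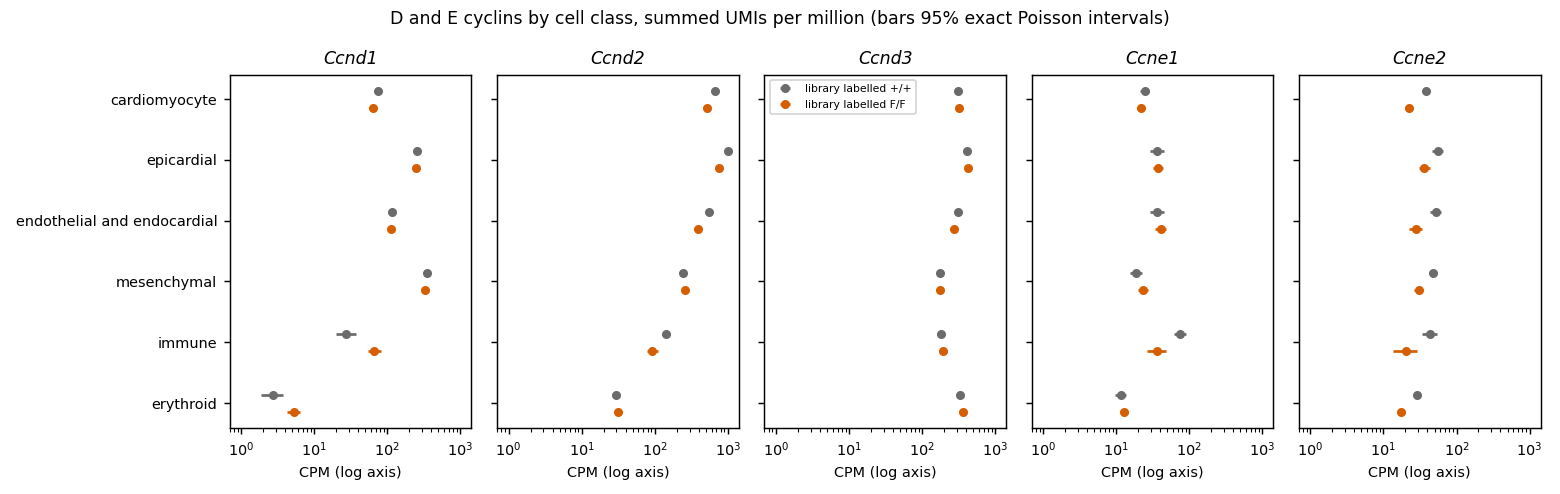
CPM on a log axis is shown for the 5 D and E cyclins in 6 cell classes, with grey for the +/+ library, orange for the F/F library and bars for 95% exact Poisson intervals. Ccnd1 is lowest in erythroid-like cells (2.69 and 5.27 CPM), where Ccnd3 stands at 327 and 360 CPM and haemoglobin takes 60.6% and 59.1% of UMIs.

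Of the other members, Tk1 and Pcna also differed by class. Tk1 was at 35.9 CPM in cardiomyocyte-like and 26.5 in erythroid-like cells of the +/+ library but at 106 in endothelial-like and 97.8 in mesenchymal-like cells. Pcna ran from 87.5 CPM in cardiomyocyte-like to 227 in immune-like cells. Ube2c was at 402 CPM in mesenchymal-like, 336 in cardiomyocyte-like and 194 in erythroid-like cells, and at 82.7 in the Rspo3 cluster. Cenpa ran from 95.4 CPM in erythroid-like to 275 in cardiomyocyte-like cells, and Plk1 from 30.8 in cardiomyocyte-like to 69.1 in mesenchymal-like cells among the 6 classes. Each of these erythroid-like values carries the haemoglobin share given above. Without haemoglobin and mitochondrial genes erythroid-like cells of the +/+ library were at 508 CPM for Ube2c, 278 for Pcna and 89.1 for Plk1, the highest of the 6 classes for each. Tk1 was then at 69.4 CPM in erythroid-like and 39.1 in cardiomyocyte-like cells. Cenpa was at 250.1 CPM in erythroid-like cells and lowest in endothelial-like cells (157), with cardiomyocyte-like cells still highest (299.9).

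By cell state, the E cyclins were highest in S-phase-positive cells of both libraries. In +/+ cells of all classes Ccne2 was at 20.2 CPM in cells positive for neither score, 86.1 in cells that were only S-phase-positive and 32.9 in mitosis-positive cells. In the F/F library the same states held 14.97, 49.5 and 19.5 CPM, lower in each. Ccne1 went from 12.04 to 36.2 and 23.4 CPM in +/+ and from 16.0 to 40.9 and 19.0 in F/F. Ccnd3 varied little, at 324, 328 and 282 CPM in +/+, while Ccnd2 was at 393, 397 and 276. The states were cut from S phase and mitosis UMIs of the same cells, and classes, with their unequal haemoglobin shares, contribute to them unequally.

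Among the inhibitors, Cdkn1c was highest in cells positive for neither score, at 1712 CPM in +/+ against 1214 in S-phase-positive and 795 in mitosis-positive cells. The F/F library gave 1802, 1309 and 814 CPM. By class, Cdkn1c in +/+ was at 4156 and 10814 CPM in the endothelial-like clusters and at 20.5 to 50.4 in the erythroid-like ones. Those classes were 42.9% and 68.4% mitosis-positive, so the mixture of classes differs between the states. Its part in the order of the states was not tested. Within cardiomyocyte-like cells the range was narrower, at 1258, 1064 and 1073 CPM in +/+. Cdkn2c was highest in mitosis-positive cells, at 2.85, 7.69 and 12.96 CPM, as was Cdkn2d at 42.8, 28.3 and 59.3. Cdkn1a was at 21.6, 23.9 and 10.1 CPM in +/+. Cdkn1b, Cdkn2a and Cdkn2b stayed below 12 CPM in each state of the +/+ library.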

How the data were processed

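The bulk values were used as FPKM as deposited by the authors. No header names the unit, which was inferred from the values (not whole, with totals of 334194 to 586795 per library), and read depth is unknown. The submitters' processing notes name CASAVA, TopHat2 2.0.11, Cell Ranger and the builds mm9 and mm10. The UMI counts per gene and barcode are whole numbers as deposited by the authors (38302758 in the +/+ library and 51432290 in F/F), and the lowest barcodes held 3746 and 4009 UMIs. Of 24525 bulk lines, 769 lines of 270 repeated symbols were reduced to 1 line per symbol, and 1 gene was dropped for a blank cell.

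FPKM plus 1 was log2 transformed and fitted with limma 3.58.1 (R 4.3.3, intensity trend) over all genes averaging 1 FPKM or more, each comparison with its own libraries, and p-values were adjusted over all genes tested. A fold change on the log2 (FPKM + 1) scale understates the change of low genes. The fit was tested on simulated data. Alternatives were a pseudocount of 0.1, no filter, median-ratio and upper-quartile scaling, a replicate block, a Y-linked covariate, 1 fit of all 25 libraries, +/+ as the only 8-week control, a covariate for 2 sets of 8-week libraries (5 and 8, cut along the first principal component where the largest number of genes did not overlap, at no wide gap between libraries) and leaving out each library. Leaving out the 2 or 3 libraries highest on that component and thinning without haemoglobin were chosen after seeing the data.

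Barcodes had to hold 500 genes (2555 and 3464 did), and the highest Scrublet doublet scores were removed at 0.8% per 1000 barcodes (52 and 96 cells). Cells were clustered with Scanpy 1.11.5 (2000 variable genes, 30 components, 15 neighbours, Leiden resolution 1.0). A name needed at least 3 markers with a fold of 2 over the rest in at least 25% of a cluster's cells, but this alone did not give one. In the Rspo3 cluster 14 cardiomyocyte markers met it, and in the haemoglobin-led cluster 6 erythroid markers, yet both stayed unnamed. Their cells are therefore outside the cardiomyocyte-like and erythroid-like shares. Class names are rebuilt and not the authors'. Shares carry exact (Clopper-Pearson) 95% binomial intervals, and the interval of a difference was combined from these. Shares use 2372 and 3213 cells, since 131 and 155 held fewer than 5000 UMIs.

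The members and gene lists were chosen with earlier results of these data known. Values are given for the D and E cyclins, the 4 S phase and 6 mitosis members highest in mean FPKM over all bulk libraries, the 2 members with the smallest unadjusted p in each genotype comparison and the 7 CDK inhibitors. All other genes were named after their values were seen.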

Additional observations from a re-analysis of the deposited data

Results flagged for a closer look

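In 3 of 37 groups of 8-week libraries tested (members and CDK inhibitors with a mean of at least 1 FPKM), 1 library lay far from the others by Dixon's criterion, and chance gives about 1 in 20. Ccnd1, a D cyclin, was at 22.91 FPKM in D/D replicate 4, with the nearest library at 13 FPKM. Cdkn1a, the inhibitor p21, was at 112.08 FPKM in +/+ replicate 4, with the nearest at 28.21. Cdkn1b, the inhibitor p27, was at 27.86 FPKM in +/+ replicate 5, the library without Hand2os1 RNA, with the nearest at 17.3.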

How the results depend on the processing

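In the genotype comparisons 0 members were called by limma under every alternative run, among them the replicate block, and all values of single genes kept their side of the threshold. The number of members lower at E16.5 was 26 to 33 when single libraries were left out, 29 with the replicate block, 30 without the filter and 27 in 1 fit of all 25 libraries. Without F/+ E11.5 replicate 3, Ccna2 was called higher (0.41, adjusted p = 0.039 by limma). At 8 weeks 36 were lower with the replicate block, 41 without the filter and 39 in 1 fit. The shares of all genes called lower are not given beside these counts of either stage comparison. Same-numbered libraries did not deviate together throughout, with correlations of -0.43 to 0.53, so the block rests on numbers alone, and it changed no genotype call. Under upper-quartile scaling the E16.5 difference of Rrm2 was 0.0595 and that of Ube2c 0.0947, both opposite in sign. That of Ccnd1 ran from -0.11 to 0.12 without single libraries. The 8-week difference of Cdkn1a was -0.20 with the replicate block and -0.14 to 0.53 without single libraries. The difference of S-phase-positive shares over all cells was -2.27 points at 10 UMIs or more, and the Ube2c ratio in erythroid-like cells was 0.99 with cell cycle genes kept in the clustering (1.06 without). The causes were not tested. Over all genes, 24 were called at E11.5 in 1 fit of 25 libraries in place of 1, 3 at E16.5 with the Y-linked covariate in place of 1, and 6 for the difference between stages in 1 fit in place of 1. The cardiomyocyte-like difference in mitosis-positive cells ran from 8.40 to 9.94 points over the alternatives run on thinned cells, beside unthinned shares of 75.0% and 80.0%.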
